A study of Drosophila melanogaster with 3 samples.

Results

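A small set of exon junction complex (EJC) peaks lay over a peak of the other DNA strand in the same library. A peak was taken as a member when it shared 1 bp or more with a peak of the opposite strand in the same list, and 654 of the 87432 deposited peaks met this rule. The members were selected on the positions and strands of the peaks, which were themselves called from read depth, so their counts and overlaps describe the lists and no test is run on them. Capture of tagged eIF4AIII and then endogenous Y14 (eIF4AIII/Y14 in the plots, the eIF4AIII-tag list in the text) gave 312 members of 34945 peaks. Capture of tagged Btz and then endogenous eIF4AIII (Btz/eIF4AIII, the Btz-tag list) gave 214 of 36393. Capture of tagged Y14 and then endogenous eIF4AIII (Y14/eIF4AIII, the Y14-tag list) gave 128 of 16094. The 3 libraries were made from S2 cells, a cultured line of Drosophila melanogaster, which carried a copper-induced tagged protein (10 to 50 µM CuSO4), grew for 72 hours at 24°C and received 100 µg/ml cycloheximide for 2 hours. RNA held on oligo(dT) was trimmed for 15 min with 0.5 units of micrococcal nuclease (MNase) for the eIF4AIII-tag and Btz-tag lists and with 0.3 units for the Y14-tag list. Each purification had 1 library, no control purification was analysed here, and no p-value is given. Intervals are exact (Clopper-Pearson) 95% binomial intervals, which cover counting error alone and treat peaks or pairs as independent, although neighbouring pairs can share a peak.

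The EJC is deposited on mRNA by splicing, a short distance upstream of exon junctions, and is removed by translating ribosomes. eIF4AIII is its RNA-clamping helicase, Y14 is part of the heterodimer that locks the clamp, and Btz (Barentsz) is a further core protein. Some Drosophila genes are transcribed across the same DNA from both strands, and RNAs of that kind can form double strands, which in flies Dicer-2 cuts into small interfering RNAs. The 5' and 3' ends named below assume that the strand given for a peak is that of its RNA. Coordinates are 1-based and belong to release 5 of the genome by the sequence names of the lists. No sequence of that release was used here, so peaks were not assigned to genes and no bases are printed.

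Peaks over an opposite-strand peak were rare in all 3 lists. They made up 0.893% of the eIF4AIII-tag list (95% interval 0.797 to 0.997), 0.588% of the Btz-tag list (0.512 to 0.672) and 0.795% of the Y14-tag list (0.664 to 0.945). They formed 159, 110 and 68 overlapping pairs in the same order. Nearly all were simple pairs. Of the connected groups, 147 of 153 held 2 peaks in the eIF4AIII-tag list, 98 of 104 in the Btz-tag list and 55 of 60 in the Y14-tag list, and the largest group held 6 peaks, in the Y14-tag list. Each pair holds a plus and a minus peak by the rule, so members of the 2 strands are near equal in number. There were 157 plus and 155 minus members in the eIF4AIII-tag list, 107 of each in the Btz-tag list and 63 and 65 in the Y14-tag list. Bases covered on both strands came to 2282 of 1232431 covered bases in the eIF4AIII-tag list (0.185%), 2429 of 2239368 in the Btz-tag list (0.108%) and 1565 of 851752 in the Y14-tag list (0.184%).

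One place held a large part of the pairs. The stretch of 3L from 490001 to 510000, which consists of the 2 windows of 10 kb with the most pairs in every list, carried 29 of the 159 eIF4AIII-tag pairs (18.2%), 22 of the 110 Btz-tag pairs (20.0%) and 32 of the 68 Y14-tag pairs (47.1%). It held 0.315%, 0.206% and 0.559% of all peaks of these lists. Inside it, 53 of 110 eIF4AIII-tag peaks (48.2%, 38.6 to 57.9), 39 of 75 Btz-tag peaks (52.0%, 40.2 to 63.7) and 56 of 90 Y14-tag peaks (62.2%, 51.4 to 72.2) lay over an opposite-strand peak. Outside it the shares were 0.744%, 0.482% and 0.450%, so the order of the Btz-tag and Y14-tag lists depended on this stretch. Below it is called the dense stretch, and values are given for it and for the rest of the genome. It was chosen with the pair counts in view, so these shares describe it and test nothing.

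The paired peaks of the dense stretch fell into 2 runs with a clear space between them. The first run went from 494591 to 497887 (3297 nt) and held 14 eIF4AIII-tag, 15 Btz-tag and 19 Y14-tag pairs. The second went from 502288 to 506300 (4013 nt) and held 15, 7 and 13. In the 4400 nt between them lay 3 minus eIF4AIII-tag peaks, 1 plus Btz-tag peak and 2 plus Y14-tag peaks. Both strands were densely marked in the runs. The first run had 25 plus and 22 minus peaks in the eIF4AIII-tag list, 17 and 18 in the Btz-tag list, and 20 and 21 in the Y14-tag list. The second run had 22 and 25, 16 and 20, and 19 and 24. Over the 3 lists together, peaks covered 46.5% of the first run on the plus strand, 55.1% on the minus strand and 28.0% on both. For the second run the values were 38.6%, 40.4% and 17.7%.

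**Figure D1:**
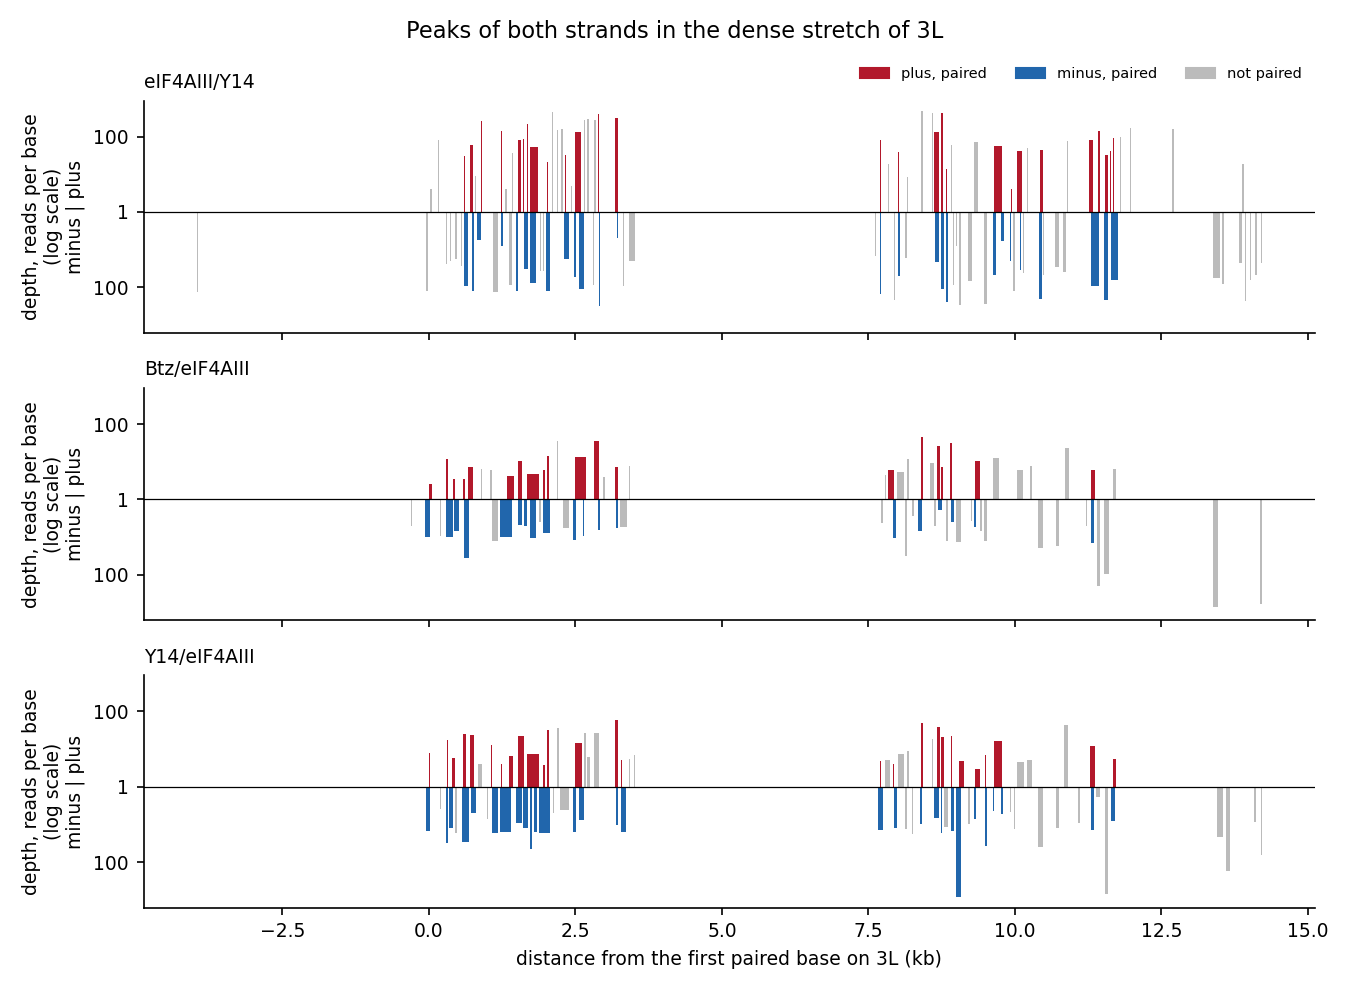
Peaks of the dense stretch of 3L in each list, with plus-strand peaks drawn upward and minus-strand peaks downward. The horizontal axis is the distance from the first paired base in kb, bar height is depth in reads per base on a log scale, and bars start at 1 read. Paired peaks (red for plus, blue for minus) fill 2 runs that carry peaks on both strands in all 3 lists, and unpaired peaks are grey.

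Depth in the dense stretch differed between the lists relative to each list as a whole. Depth is the score the authors deposited, which behaves as a mean number of reads per base and is not scaled to library size. Plus-strand peaks of the stretch had a median of 79.6 reads per base in the eIF4AIII-tag list and minus-strand peaks 57.7, against 52.0 for the whole list. In the Btz-tag list the medians were 7.40 on the plus strand and 9.24 on the minus strand, against 95.3 for the list. In the Y14-tag list they were 8.00 and 12.9, against 34.0. The stretch was thus at or above the median of its list in the eIF4AIII-tag list and below it on both strands in the other lists. The deepest peak of the stretch in the pairs was a minus-strand Y14-tag peak at 865 reads per base, whose plus-strand partner had 4.84 reads.

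Pairs of the dense stretch were found again in the other purifications. A pair counted as found again when another list had a pair whose peaks overlapped it on their own strands. This was so for 19 of 29 eIF4AIII-tag pairs (65.5%, 45.7 to 82.1), 20 of 22 Btz-tag pairs (90.9%, 70.8 to 98.9) and 27 of 32 Y14-tag pairs (84.4%, 67.2 to 94.7). Elsewhere it was so for 5 of 130 (3.85%, 1.26 to 8.75), 4 of 88 (4.55%, 1.2 to 11.2) and 6 of 36 (16.7%, 6.37 to 32.8). The share was higher in the stretch in each list. The stretch was chosen for holding the most pairs in every list, so this contrast is not independent of the choice and tests nothing. Unpaired peaks of the stretch also recurred often on their own strand in either other list, 36 of 57 in the eIF4AIII-tag list (63.2%), 32 of 36 in the Btz-tag list (88.9%) and 29 of 34 in the Y14-tag list (85.3%). The high density of peaks in the stretch moves with its recurrence, and its part in it was not tested.

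The overlap regions of all pairs merged into 293 places, and few of these were shared. A pair was present at 261 places in 1 list, at 21 in 2 lists and at 11 in all 3 lists. The dense stretch held 10 of the 11 places found in all 3 lists and 15 of the 21 found in 2. Of the 246 places elsewhere, 239 (97.2%) belonged to a single list.

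Outside the dense stretch, 1 place carried a pair in all 3 lists. It lies on 3L at 20304311 to 20304331. The plus peak had 504 reads per base in the eIF4AIII-tag list, 511 in the Btz-tag list and 877 in the Y14-tag list, and the minus peak had 37.0, 48.5 and 15.1. The plus strand was the deeper in each library, by 13.6, 10.5 and 57.9 times. The minus peak ended at base 20304331 in all 3 lists. The plus peak began at 20304330 in the eIF4AIII-tag list and in the Btz-tag list, so that the 5' ends overlapped by 2 nt, and at 20304306 in the Y14-tag list, where the 21 nt minus peak lay inside it.

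At the 9 named places of the dense stretch found in all 3 lists, the deeper strand was plus in every list at 2, minus in every list at 3, and differed between lists at 4. The pair on 3L at 497081 to 497102 met at its 5' ends in all 3 lists, with 130 plus and 54.1 minus reads per base in the eIF4AIII-tag list, 13.3 and 12.3 in the Btz-tag list, and 14.2 and 16.0 in the Y14-tag list. At 496601 to 496636 a plus peak lay inside a longer minus peak in each list. The minus peak was the deeper in the eIF4AIII-tag list (124 against 21.1 reads) and the plus peak in the Btz-tag list (13.8 against 7.92) and the Y14-tag list (32.6 against 16.9). At 497785 to 497811 the 3' ends met in all 3 lists, and the plus peak was the deeper in each, with 317 against 5.00 reads in the eIF4AIII-tag list, 7.16 against 5.97 in the Btz-tag list and 60.4 against 10.7 in the Y14-tag list. The plus peak at this place began at 497773 or 497774 and ended at 497811 or 497812 in the 3 lists.

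Further named places of the first run lay close together. At 496312 to 496412 a minus peak of 101 nt lay inside a plus peak of 143 nt in the eIF4AIII-tag list, with 77.8 and 52.8 reads per base. This was the longest overlap of that list. In the Btz-tag list a minus peak of 95 nt lay there inside a plus peak of 210 nt, with 10.9 and 4.62 reads, also the longest overlap of its list. In the Y14-tag list a plus peak of 204 nt and 7.36 reads held minus peaks of 40 nt and 44 nt with 46.0 and 15.7 reads. The minus strand was the deeper at this place in all 3 lists. At the 5' end of the same plus peak a second minus peak overlapped it by 2 nt in the Btz-tag list and by 12 nt in the Y14-tag list. In the eIF4AIII-tag list a separate plus peak of 21 nt, from 496263 to 496283, overlapped that minus peak by 17 nt. At 496109 to 496116 the 5' ends of a further pair met, with overlaps of 8 nt in the eIF4AIII-tag list, 63 nt in the Btz-tag list and 61 nt in the Y14-tag list. The minus peak was the deeper there in the eIF4AIII-tag list (128 against 79.6 reads) and the plus peak in the Btz-tag list (10.7 against 4.81) and the Y14-tag list (22.6 against 9.38).

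The remaining named places of the stretch differed between lists in how the peaks lay. At 495173 to 495221 the plus peak lay inside the minus peak in the Y14-tag list, with 25.5 and 29.2 reads per base. In the Btz-tag and eIF4AIII-tag lists the 3' ends met there, with overlaps of 20 and 13 nt. In the second run, at 505891 to 505919, the eIF4AIII-tag peaks met at their 3' ends, with 81.1 plus and 95.1 minus reads, and in the other lists the minus peak lay inside the plus peak. Near 503336, a plus peak of 22 nt lay inside a minus peak of 62 nt in the eIF4AIII-tag list, with 422 and 112 reads, and the 5' ends met in the other lists.

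Elsewhere, pairs stood mostly alone. Of the pairs outside the dense stretch, 107 of 130 in the eIF4AIII-tag list (82.3%), 72 of 88 in the Btz-tag list (81.8%) and 31 of 36 in the Y14-tag list (86.1%) had no other pair of their list within 10 kb. When places at most 1000 nt apart were joined over the 3 lists, 209 of 226 runs held 1 place and 5 held 3 or more, among them the runs of the dense stretch.

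The other 3 of these runs were short. On 2L from 4990358 to 4991470, the eIF4AIII-tag list had 4 pairs and the Y14-tag list had 2 at other bases of the run. The 4 eIF4AIII-tag pairs had plus depths of 24.2, 19.0, 18.0 and 46.0 reads per base and minus depths of 6, 32.0, 169 and 47.0. The Btz-tag list had 5 plus and 2 minus peaks there but no overlapping pair. On 3L from 842336 to 843356, the Btz-tag list had 3 pairs, with plus depths of 48.5, 474 and 491 reads and minus depths of 259, 72.0 and 173. One eIF4AIII-tag pair lay in this run at other bases, and the Y14-tag list had 2 plus peaks and 0 minus peaks. On 2L from 8188663 to 8188855, each of 3 Btz-tag plus peaks of 783, 1229 and 860 reads per base held a minus peak of 13, 5 and 17 nt at 4 reads. Neither other list had a minus peak in that run.

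Overlaps were short. The median overlap was 15 nt in the eIF4AIII-tag list (quartiles 7 and 18), 18 nt in the Btz-tag list (12 and 24.8) and 18 nt in the Y14-tag list (11.8 and 31.5). The longest overlaps were 101, 95 and 78 nt. Overlaps of 11 to 20 nt were the largest class in the eIF4AIII-tag list, with 74 of 159 pairs, and in the Btz-tag list, with 45 of 110. In the Y14-tag list overlaps of 11 to 20 nt and of 21 to 50 nt had 24 pairs each. In the dense stretch the medians were 19, 22 and 22 nt and elsewhere 14, 17 and 16.5 nt. The shorter peak was covered to a median of 83.3% in the eIF4AIII-tag list, 100% in the Btz-tag list and 98.3% in the Y14-tag list.

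Pairs just past the limit of 1 bp were set beside opposite-strand neighbours just short of it. Overlaps of 1 to 5 nt numbered 30, 14 and 6 in the eIF4AIII-tag, Btz-tag and Y14-tag lists, and opposite-strand peaks 0 to 4 nt apart without overlap numbered 20, 5 and 7. The shallower peak had a median of 17.5, 5.00 and 7.50 reads per base just inside the limit and 19.7, 4 and 5.66 just outside. The deeper peak had medians of 91.3, 100 and 14.5 reads inside and 55.5, 10.3 and 16.8 outside. The contrast for the Btz-tag list rests on 14 pairs against 5.

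Pairs met at either end. A plus peak to the left of a minus peak meets it at the 3' ends, and the reverse order meets at the 5' ends. The 3' ends met in 42 eIF4AIII-tag, 26 Btz-tag and 13 Y14-tag pairs and the 5' ends in 53, 24 and 21. Of these staggered pairs, the share meeting at the 3' ends was 44.2% (34.0 to 54.8), 52.0% (37.4 to 66.3) and 38.2% (22.2 to 56.4), and each interval held 50%. One peak lay inside the other in 62 of 159 eIF4AIII-tag pairs (39.0%), 59 of 110 Btz-tag pairs (53.6%) and 34 of 68 Y14-tag pairs (50.0%). Identical borders on both strands occurred in 2, 1 and 0 pairs.

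The share of nested pairs was higher outside the dense stretch in each list, with intervals that overlapped. One peak lay inside the other in 53 of 88 Btz-tag pairs elsewhere (60.2%, 49.2 to 70.5) and in 6 of 22 in the stretch (27.3%, 10.7 to 50.2). The shares were 63.9% (46.2 to 79.2) and 34.4% (18.6 to 53.2) in the Y14-tag list and 40.8% (32.2 to 49.7) and 31% (15.3 to 50.8) in the eIF4AIII-tag list. A difference was not tested. Overlaps between staggered ends were of like length at either end. At the 3' ends the median overlap was 9, 13 and 14 nt in the eIF4AIII-tag, Btz-tag and Y14-tag lists, and at the 5' ends it was 10, 12 and 12 nt.

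**Figure D2:**
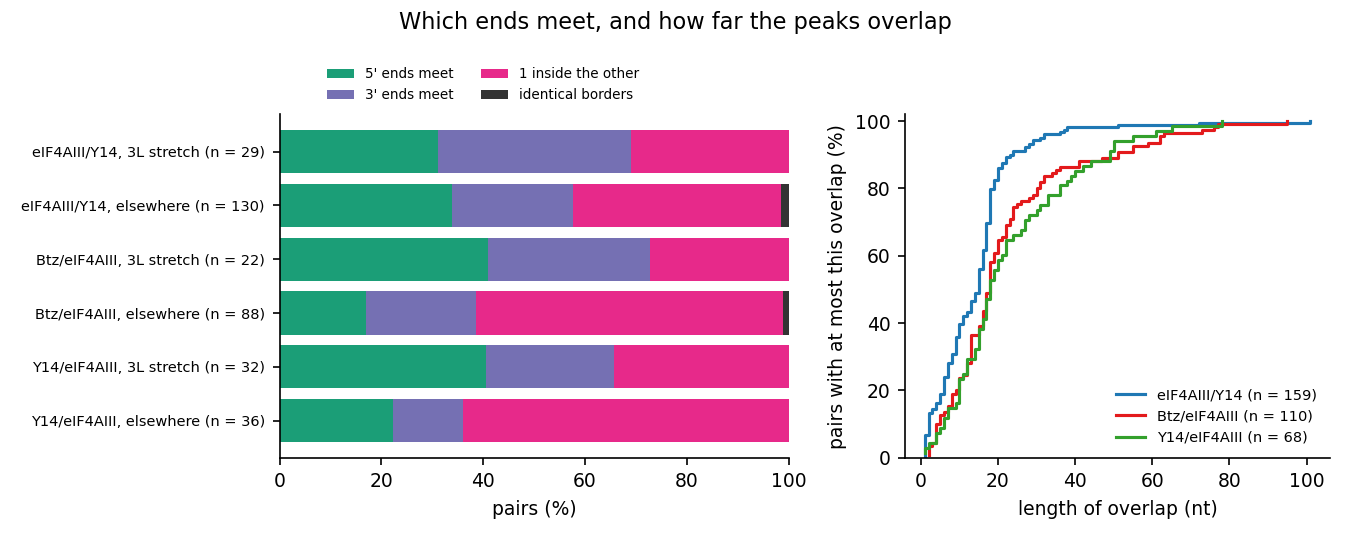
Left, share of pairs by which ends meet, for the dense stretch of 3L and the rest of the genome in each list (n is the number of pairs). Right, cumulative share of pairs by length of overlap in nt for the 3 lists, with the eIF4AIII-tag curve furthest to the left and its median at 15 nt.

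The 2 strands of a pair were seldom of like depth outside the dense stretch. The deeper peak had a median of 3.85 times the depth of the shallower in the eIF4AIII-tag list (interval of the median 3.00 to 5.57), 5.67 times in the Btz-tag list (3.36 to 10.5) and 3.22 times in the Y14-tag list (2.15 to 5.11). Elsewhere than in the stretch the medians were 4.49, 10.4 and 6.65, and in the stretch they were 2.41, 2.29 and 2.39. The ratio was 10 or more in 41 of 130 eIF4AIII-tag pairs elsewhere (31.5%), 45 of 88 Btz-tag pairs (51.1%, 40.2 to 61.9) and 12 of 36 Y14-tag pairs (33.3%). In the stretch it was so in 4 of 29, 2 of 22 (9.09%, 1.12 to 29.2) and 1 of 32. Depth varied widely within each list, with quartiles over all peaks of 18 and 127, 13 and 326, and 7 and 339 reads per base. Ratios between unrelated peaks of a list were not computed, so whether pairs differ from such peaks was not tested. The largest ratio was 620, on 3L at 19997408 to 19997413 in the eIF4AIII-tag list, where a plus peak of 3722 reads per base overlapped a minus peak of 6. The same pair was present in the Y14-tag list, with 1527 plus and 5.00 minus reads. Which strand was the deeper was even, with the plus strand deeper in 80 of 159, 56 of 110 and 34 of 68 pairs.

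**Figure D3:**
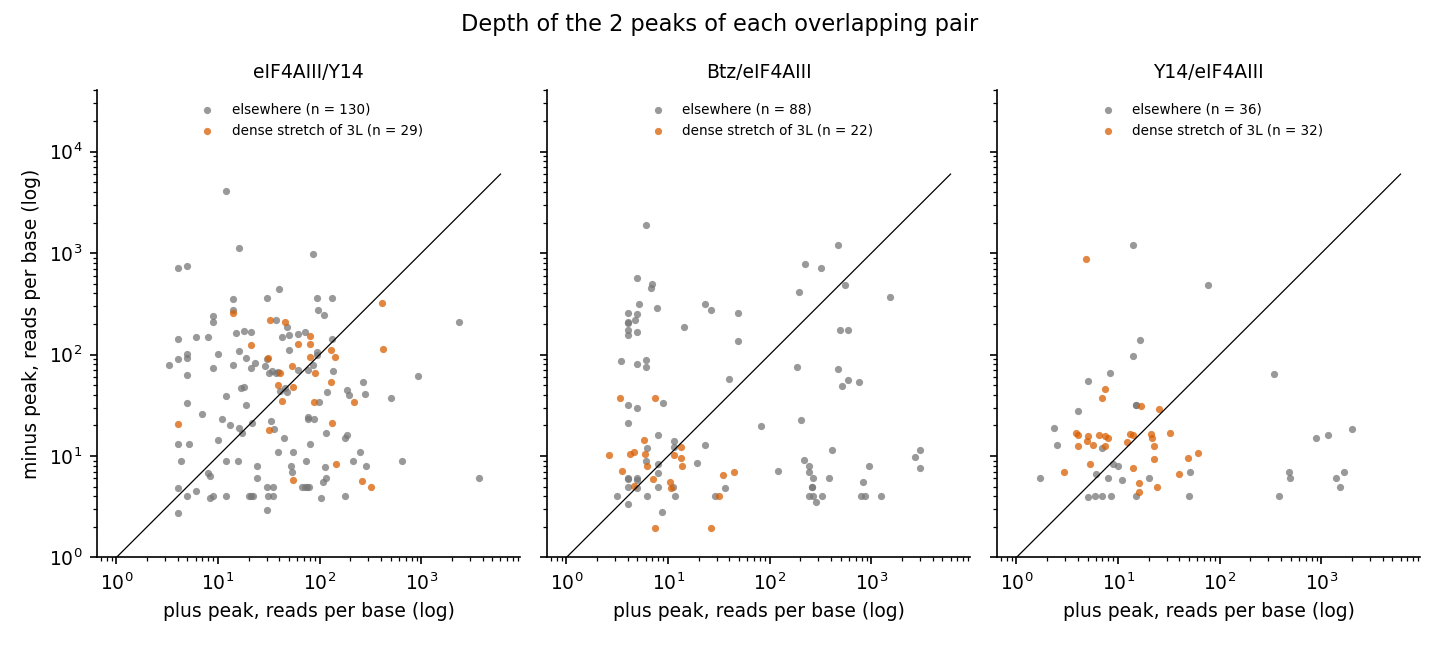
Depth of the plus peak (horizontal axis) and the minus peak (vertical axis) of each overlapping pair in reads per base, both on log scales, with a line at equal depth. Pairs of the dense stretch (orange) lie nearer the line than most others (grey), and many grey points have 1 strand under 10 reads per base.

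Depth ranks of the 2 strands were compared across pairs. Over all pairs, Spearman's coefficient between plus and minus depth was -0.029 in the eIF4AIII-tag list (159 pairs), -0.083 in the Btz-tag list (110) and -0.12 in the Y14-tag list (68). In the dense stretch it was -0.17, -0.42 and -0.24 (29, 22 and 32 pairs), and elsewhere -0.046, -0.12 and 0.023 (130, 88 and 36 pairs). The points share a library, and some share a peak. Outside the stretch both peaks of each pair were set against the median depth of their list. They were first sorted by depth, so the contrast between deeper and shallower peaks is set in advance and tests nothing. There the deeper peak lay above the median depth of its list in 86 of 130 eIF4AIII-tag pairs, 54 of 88 Btz-tag pairs and 18 of 36 Y14-tag pairs, and the shallower peak did so in 17, 8 and 2. In nested pairs elsewhere the inner peak was the deeper in 12 of 53 eIF4AIII-tag pairs, 8 of 53 Btz-tag pairs and 4 of 23 Y14-tag pairs.

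A few pairs were deep on both strands. In the eIF4AIII-tag list the pair whose shallower peak was deepest lay in the dense stretch, on 3L with its overlap at 497493 to 497501, with 409 plus and 322 minus reads per base. The next pairs lay on 3L at 3183421 to 3183435, with 2340 plus and 208 minus reads, and on 3R at 11066623 to 11066625, with 132 and 363. In the Btz-tag list the leading pairs were on 3R at 19759893 to 19759904, with 555 plus and 484 minus reads and the 5' ends meeting, on 2R at 2764603 to 2764627, with 474 and 1206, and on 3R at 65563 to 65582, with 1526 and 365. In the Y14-tag list they were on U at 5771482 to 5771530, with 77.0 and 485 reads, on X at 1936175 to 1936213, with 344 and 63.6, and in the dense stretch at 495173 to 495221. Among these, both pairs in the dense stretch were found again as pairs in another list, and the other 7 were not.

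Over whole lists the members were shallower than the other peaks. Their median depth was 40.4 reads per base against 52.3 for the other peaks in the eIF4AIII-tag list, 11.5 against 96.0 in the Btz-tag list and 12.8 against 35.0 in the Y14-tag list. Without the dense stretch the members had medians of 34.6, 16.1 and 11.5 reads. These pool unlike peaks, since the shallower peaks of the pairs there had medians of 13.5, 6 and 6 reads. The deeper peaks had medians of 79.2, 209 and 41.0 reads. Inside the stretch they were not uniformly shallower, with medians of 77.8, 7.41 and 13.4 reads against 64.0, 7.54 and 9.28 for its unpaired peaks. With each list cut into 4 depth classes of equal size, members made up 1.09% of the lowest class and 0.540% of the highest in the eIF4AIII-tag list outside the dense stretch, 0.940% and 0.308% in the Btz-tag list, and 0.676% and 0.298% in the Y14-tag list. Among the 100 deepest peaks of each list, 2, 1 and 1 were members.

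Outside the dense stretch the members were also narrower. Their median width was 20 nt in the eIF4AIII-tag list, 36 nt in the Btz-tag list and 33 nt in the Y14-tag list, against 31, 53 and 48 nt for the other peaks. The shallower peak of a pair was usually the narrower. Its median width outside the stretch was 18, 21 and 19 nt, and that of the deeper peak 31, 52 and 51.5 nt. In the dense stretch paired peaks instead had larger median widths than unpaired peaks, 40, 58 and 47.5 nt against 22, 36.5 and 44 nt. The intervals of these medians overlapped in each list. They were 22 to 58 and 21 to 23, 42 to 81 and 28 to 66, and 38 to 73 and 26 to 67 nt. A wider peak meets the overlap rule more easily, which bears on these widths and on that of the widest peak. The widest peak of any list was a member: a Btz-tag plus peak of 2283 nt on 3R, from 23526369 to 23528651, with 3003 reads per base, held minus peaks of 24 nt at 11.5 and 7.63 reads.

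A narrow width class was frequent among the shallower peaks. Widths of 17 to 20 nt were found in 64 of 130 shallower peaks outside the dense stretch in the eIF4AIII-tag list (49.2%, 40.4 to 58.1), 23 of 88 in the Btz-tag list (26.1%, 17.3 to 36.6) and 12 of 36 in the Y14-tag list (33.3%, 18.6 to 51). Among unpaired peaks of the lowest depth class the shares were 16.7% (15.9 to 17.5), 6.03% (5.55 to 6.55) and 17.2% (16.0 to 18.4), and in each list the interval for the shallower peaks lay above. These groups were not matched in depth. The shallower peaks had median depths of 13.5, 6 and 6 reads per base and reached 208, 484 and 77. The unpaired class had medians of 9, 6 and 5 reads and reached 18, 13 and 7. Among deeper peaks outside the stretch the shares were 20.8%, 5.75% and 11.1%. This width class was chosen after the widths were seen. A depth that is a whole number, as equal coverage of every base gives, was found in 53 of these 64 narrow peaks in the eIF4AIII-tag list (82.8%), 11 of 23 in the Btz-tag list (47.8%) and 10 of 12 in the Y14-tag list (83.3%). Unpaired peaks of the same width and the lowest depth class had a whole-number depth in 89.8%, 72.1% and 87.7%. PCR copies of a fragment cannot be told apart from separate fragments in these lists.

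Peaks on the opposite strand were also counted near members, leaving out the partner itself. Another opposite-strand peak lay within 2000 nt of 170 of 259 members outside the dense stretch in the eIF4AIII-tag list (65.6%, 59.5 to 71.4), 127 of 175 in the Btz-tag list (72.6%, 65.3 to 79.0) and 42 of 72 in the Y14-tag list (58.3%, 46.1 to 69.8). For unpaired peaks it did so in 23.5%, 24.2% and 13.4%. The opposite-strand neighbours of a member are nearly the own-strand neighbours of its partner, and members were chosen for having a partner. The higher share near members is therefore not independent of the rule and tests nothing. Own-strand neighbours within 2000 nt were fewer near members outside the stretch in the eIF4AIII-tag and Btz-tag lists, with medians of 1 and 2. Unpaired peaks of the whole list, the stretch included, had a median of 5 in both lists. In the Y14-tag list the medians were 1.5 and 2. With the stretch included, members had medians of 3, 4 and 6 in the eIF4AIII-tag, Btz-tag and Y14-tag lists. Where the strands of a pair outside the stretch differed in the number of own-strand neighbours, the deeper peak was on the strand with more of them in 80 of 111 eIF4AIII-tag pairs (72.1%, 62.8 to 80.2), 61 of 82 Btz-tag pairs (74.4%, 63.6 to 83.4) and 23 of 30 Y14-tag pairs (76.7%, 57.7 to 90.1). One strand had no neighbour of its own within 2000 nt in 67 of 130, 40 of 88 and 20 of 36 pairs, and there the lone peak was the shallower in 48, 28 and 16.

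Single members outside the dense stretch were found again in other lists at a lower share than all peaks in the eIF4AIII-tag list, and at a share whose interval held that of all peaks in the other lists. Of all peaks, 46.9% in the eIF4AIII-tag list, 45.5% in the Btz-tag list and 54.9% in the Y14-tag list overlapped a same-strand peak of either other list. Members outside the stretch did so in 93 of 259 cases (35.9%, 30.1 to 42.1), 72 of 175 (41.1%, 33.8 to 48.8) and 35 of 72 (48.6%, 36.6 to 60.7). Members in the stretch did so in 43 of 53 (81.1%, 68.0 to 90.6), 39 of 39 (100%, 91.0 to 100) and 53 of 56 cases (94.6%, 85.1 to 98.9). Members outside the stretch were shallower and narrower than other peaks, and the part of this in their recurrence was not tested. In the lowest depth class, members outside the stretch recurred in 20.0% of cases in the eIF4AIII-tag list (12.5 to 29.5) against 37.7% for unpaired peaks. In the Btz-tag list the values were 40.0% (29.5 to 51.2) and 37.6%, and in the Y14-tag list 25.9% (11.1 to 46.3) and 42.3%.

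**Figure D4:**
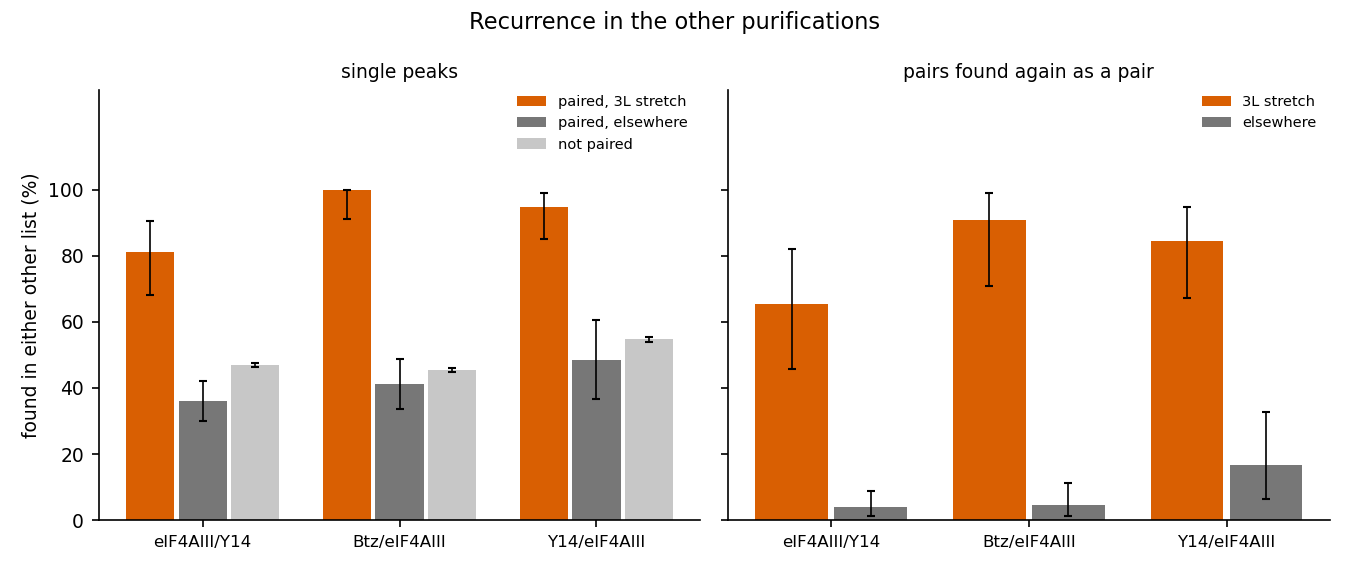
Share of peaks (left) and of pairs (right) found again in either other list, in percent, with exact 95% binomial intervals. Paired peaks and pairs of the dense stretch (orange) stand above those of the rest of the genome (dark grey) in all 3 lists, and unpaired peaks are light grey.

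Outside the dense stretch the 2 peaks of a pair recurred unequally in the eIF4AIII-tag list. There the deeper peak was found in either other list in 68 of 130 pairs (52.3%, 43.4 to 61.1) and the shallower in 25 (19.2%, 12.8 to 27.1). In the Btz-tag list the counts were 41 and 32 of 88 (46.6%, 35.9 to 57.5, and 36.4%, 26.4 to 47.3) and in the Y14-tag list 20 and 15 of 36 (55.6%, 38.1 to 72.1, and 41.7%, 25.5 to 59.2), with intervals that overlapped. Both peaks of a pair recurred in a same other list in 7, 9 and 8 of these pairs. The 2 peaks were sorted by depth and also differed in width, and the part of both in their recurrence was not tested. The strands were also compared across libraries. Of all peaks outside the stretch, 0.609% of eIF4AIII-tag and 0.75% of Y14-tag peaks overlapped an opposite-strand Btz-tag peak, 0.396% and 0.330% of eIF4AIII-tag and Btz-tag peaks overlapped one of the Y14-tag list, and 0.586% and 0.862% of Btz-tag and Y14-tag peaks overlapped one of the eIF4AIII-tag list. In the stretch these shares ran from 41.8% to 58.9%. The lists differ in length and width, so these shares are not comparable between lists.

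Arm 3L held more members than its share of the peaks, with 29.2% of the eIF4AIII-tag members, 31.3% of the Btz-tag members and 60.9% of the Y14-tag members, against 18.8%, 18.8% and 19.4% of the peaks. Members were 1.39%, 0.979% and 2.50% of the 3L peaks, and 0.589%, 0.414% and 0.726% without the dense stretch. On the other large arms the shares ran from 0.729% (2R) to 0.848% (3R) in the eIF4AIII-tag list, from 0.375% (3R) to 0.597% (2L) in the Btz-tag list and from 0.256% (X) to 0.497% (2L) in the Y14-tag list. On 3R, the eIF4AIII-tag list had 72 members of 8489 peaks (0.848%, 0.664 to 1.07), the Btz-tag list 33 of 8794 (0.375%, 0.258 to 0.527) and the Y14-tag list 12 of 3664 (0.328%, 0.169 to 0.571). Chromosome 4 had 2 members of 618 peaks in the eIF4AIII-tag list, 6 of 595 in the Btz-tag list and 0 of 230 in the Y14-tag list, where the upper limit of the interval was 1.59%.

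**Figure D5:**
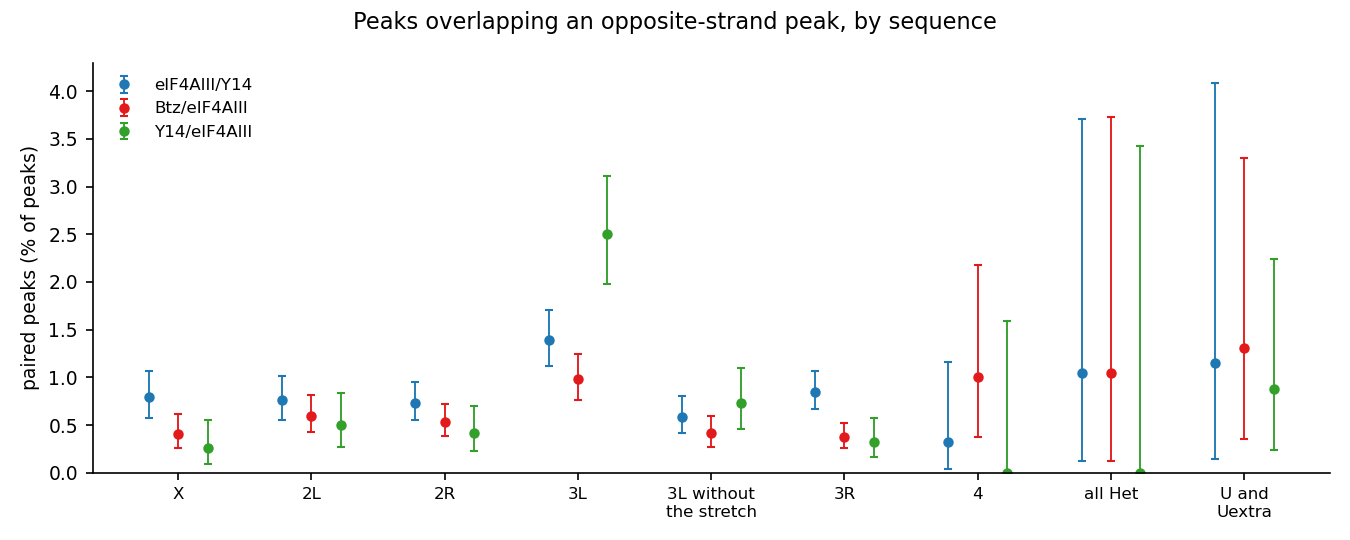
Paired peaks as a percent of the peaks of each sequence or group of sequences, for the 3 lists, with exact 95% binomial intervals. The arm 3L has the highest share of the large arms in all 3 lists and falls to 0.589%, 0.414% and 0.726% without the dense stretch. Chromosome 4, the Het sequences and U with Uextra have wide intervals. In the Btz-tag list their shares (1.01%, 1.05% and 1.30%) lie above that of 3L (0.979%).

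The unplaced sequences U and Uextra and the assembled heterochromatin held few members. U and Uextra together had 2 of 174 peaks in the eIF4AIII-tag list (1.15%, 0.140 to 4.09), 4 of 307 in the Btz-tag list (1.3%, 0.356 to 3.30) and 4 of 453 in the Y14-tag list (0.883%, 0.241 to 2.25), and each interval held the share of the whole list. The Het sequences had 2 of 192, 2 of 191 and 0 of 106 peaks, all members being on 3RHet. The Uextra pair at 28532746 to 28532823 was the longest overlap of the Y14-tag list, where a minus peak of 78 nt and 18.5 reads per base lay inside a plus peak of 82 nt and 1986 reads. The same pair was present in the Btz-tag list, with a minus peak of 77 nt and 9.87 reads inside a plus peak of 87 nt and 2687 reads. Both plus peaks began at 28532743 and both minus peaks at 28532746. On U, the eIF4AIII-tag pair at 7543275 to 7543297 had 37.0 plus and 66.1 minus reads, and neither other list had a pair there.

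Short gaps to the next peak of the same strand were counted beside members. A gap of 50 to 75 nt to the next peak of the same strand bordered 18.9% of all eIF4AIII-tag peaks, 31.9% of Btz-tag peaks and 13.7% of Y14-tag peaks. Among members it bordered 50 of 312 (16.0%, 12.1 to 20.6), 64 of 214 (29.9%, 23.9 to 36.5) and 36 of 128 (28.1%, 20.5 to 36.8), and only the interval of the Y14-tag members did not hold the share of its list. In the dense stretch it bordered 18 of 53, 15 of 39 and 19 of 56 members, and 21 of 57, 10 of 36 and 16 of 34 unpaired peaks. Elsewhere it bordered 12.4% (8.61 to 17), 28.0% (21.5 to 35.3) and 23.6% (14.4 to 35.1) of the members. There the eIF4AIII-tag interval lay below the share of its list and the Y14-tag interval lay above. The Btz-tag interval held the share of its list.

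Members were also compared with each other list singly. Of all eIF4AIII-tag peaks, 41.8% overlapped a same-strand Btz-tag peak and 16.7% a same-strand Y14-tag peak, and of the members outside the dense stretch 29.7% (24.2 to 35.7) and 18.5% (14 to 23.8). Of all Btz-tag peaks, 37.9% overlapped one of the eIF4AIII-tag list and 19.3% one of the Y14-tag list, and of the members outside the stretch 28.0% (21.5 to 35.3) and 24.0% (17.9 to 31). Of all Y14-tag peaks, 35.1% overlapped one of the eIF4AIII-tag list and 44.8% one of the Btz-tag list, and of the members outside the stretch 38.9% (27.6 to 51.1) and 36.1% (25.1 to 48.3). Members of the eIF4AIII-tag and Btz-tag lists thus lay below all peaks in the comparison of these lists with each other, and their intervals against the Y14-tag list held the share of all peaks. Where a member recurred outside the stretch, at least 1 of its borders was at the same base in 44 of 93, 45 of 72 and 18 of 35 cases (47.3%, 62.5% and 51.4%), against 36.5%, 40.4% and 35.2% of unpaired peaks that recurred.

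Members outside the dense stretch shared width and depth with another peak more often than all peaks did in the eIF4AIII-tag and Btz-tag lists. In the Y14-tag list the interval for these members held the share of all peaks. Such a match was found for 49.2% of all eIF4AIII-tag peaks, 28.0% of Btz-tag peaks and 37.8% of Y14-tag peaks. Outside the stretch it was found for 148 of 259 members (57.1%, 50.9 to 63.3), 67 of 175 (38.3%, 31.1 to 45.9) and 32 of 72 (44.4%, 32.7 to 56.6). In the stretch it was found for 12 of 53, 6 of 39 and 7 of 56 (22.6%, 15.4% and 12.5%). Members outside the stretch were also shallower and narrower than other peaks, and the part of this in these shares was not tested.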

How the data were processed

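Each library came as 1 list of peaks with strand and score. The deposited score is a signal value that is not scaled to library size: score times width was whole (tolerance 0.001) for 100% of peaks, and the score is called depth here. Per the file headers, each track name includes clipped and merged, and that of the eIF4AIII-tag list mentions Y14 alone, so groups follow the labels. The submitters' processing notes mention Bowtie and SAMtools. The sources used here do not name the peak caller, its threshold, the build or the read totals.

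Pairs, places and shares were computed with Python 3.11.15, pandas 2.3.3 and SciPy 1.17.1, by code tested on simulated data. No 2 peaks of a list overlapped on 1 strand. Medians carry order-statistic intervals. Named places were the 10 places in all 3 lists with the deepest shallowest peak and, per list, the 3 pairs deepest on the shallower strand, the 3 of longest overlap and the windows of 10 kb with most pairs. Alternatives were longer overlaps, deeper peaks, summed depth, covered bases and leaving out the dense stretch. Members, lists and measures were chosen with earlier results of these data known. The annotation at hand is of another release and was not used.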

Additional observations from a re-analysis of the deposited data

How the results depend on the processing

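Of 108 alternative values, 63 stayed within the counting interval of the reported value and 45 moved, and lists below are in the order eIF4AIII-tag, Btz-tag, Y14-tag. The share of peaks over an opposite-strand peak fell to 0.75% in the eIF4AIII-tag list with overlaps of at least 5 bp, to 0.575%, 0.470% and 0.659% with at least 10 bp, and to 0.664%, 0.451% and 0.603% with at least 50% of the shorter peak. Among the 16094 deepest peaks of each list it was 0.304% in the eIF4AIII-tag and 0.0994% in the Btz-tag list, and in the upper 50% by depth 0.309%, 0.0879% and 0.0497%. It was 0.744%, 0.482% and 0.450% without the dense stretch, and 0.185%, 0.108% and 0.184% of covered bases.

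The share of pairs whose 3' ends met was 18.6% in the eIF4AIII-tag list with at least 10 bp, and 44.2%, 52.0% and 38.2% of staggered pairs. It was 50% of 8 Btz-tag pairs among the deepest peaks, and 50% of 8 Btz-tag and of 2 Y14-tag pairs in the upper 50% by depth. The share of pairs found again as pairs was 9.48%, 14.5% and 36.0% with at least 50% of the shorter peak, and 3.85%, 4.55% and 16.7% without the dense stretch. It was 32.0% of 25, 0% of 8 and 11.8% of 68 pairs among the deepest peaks and 0% in all 3 lists in the upper 50% by depth, which leaves 28, 8 and 2 pairs. The median depth ratio was 1.89 and 2.69 in the eIF4AIII-tag and Btz-tag lists among the deepest peaks, 1.92, 2.69 and 5.85 in the upper 50% by depth, 6.65 in the Y14-tag list without the stretch, and 7.65 and 6.89 in the eIF4AIII-tag and Y14-tag lists from summed depth. The cause of these moves was not tested. Each depth limit leaves fewer peaks and takes out the shallow ones. The 16094 deepest peaks of the Y14-tag list are that whole list. Its share of pairs found again, 11.8% there against 48.5% without a limit, thus moved with only the other lists cut.

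Leaving out the stretch was chosen after the data were seen, as were the width class of 17 to 20 nt and the distances for runs and neighbours. No paired analysis was possible because each purification had 1 library. Read totals are unknown, so depth is compared within a list, and a peak that one list lacks may lie under its unstated threshold.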
